A study of Arabidopsis thaliana with 12 samples.

Results

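The transcripts described here had a higher signal with trans-zeatin, a natural cytokinin, than with DMSO in wild-type Arabidopsis thaliana roots, and little or no such difference on average in roots of the arr10 arr12 mutant. The members were chosen by their measured signal, as 20 probe sets of the 22746 that are not controls. Each had a log2 change of at least 0.7 from DMSO to trans-zeatin in wild type and below 0.25 in arr10 arr12, where the change is the difference between log2(group mean signal + 7) of the treatments. The highest of the 4 group means had to reach a signal of 40, and genes of the expansin, glutaredoxin and GH3 families were left out where the annotation named them. A gene is named by 11 of the 20 probe sets. The other 9 have no entry in the annotation used here and are given by probe set identifier, so a member of the families left out could stand among them. These values chose the members, so the responses to trans-zeatin below are a description and were not tested.

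Cytokinin is sensed by receptor histidine kinases, which pass a phosphate through histidine phosphotransfer proteins to response regulators. Type-B response regulators, to which ARR10 and ARR12 belong, are the transcription factors at the end of this relay and act redundantly with one another. In roots, cytokinin is known to limit meristem size and lateral root formation and to shape vascular tissue and nutrient uptake.

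The study hybridised 12 ATH1 arrays, 3 for each of 4 groups. Wild-type Col-0 seedlings (stock N1092) and seedlings with the arr10 arr12 mutations (insertion lines SALK_098604 and SALK_054752) received trans-zeatin or DMSO, the solvent. Plants had spent 2 weeks on upright agar plates, and the tissue label reads roots, while the extraction protocol speaks of seedlings. The dose, the length of treatment, the background ecotype of the mutant and whether replicates came from separately grown plants were not stated in the labels. If they did not, the spread between arrays is technical. Of the 11 root markers listed, 2 had a named probe set: PYK10, a beta-glucosidase abundant in roots, had a signal of 3141 to 4214, and the root hair expansin EXPA7 of 61.4 to 137.6. Of 8 markers of green tissue, RCA (134.6 to 249) and LHCB4.1 (196.5 to 340.3) were measured and were also present, both with lower group means in the mutant. Their part in the results was not tested. The median signal of the arrays lay between 39.3 and 41.6.

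**Figure D1:**
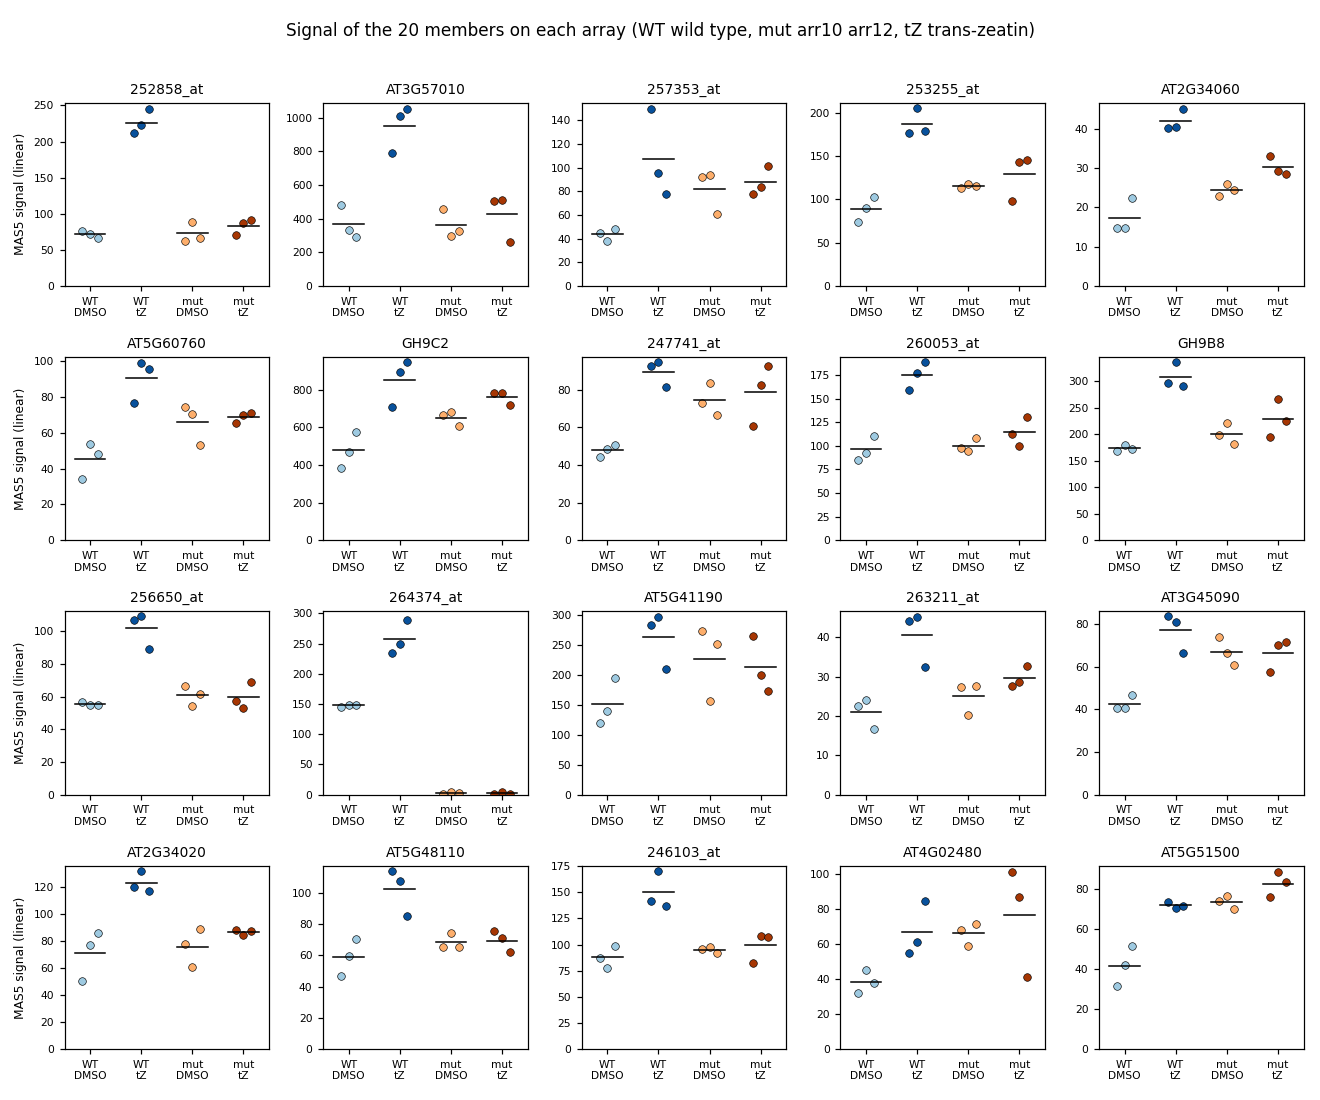
MAS5 signal (vertical axis, linear, from 0) of each of the 20 members on each of the 12 arrays, by group, with points for the arrays of replicates 1, 2 and 3 from left to right and a line at the group mean. In every panel the 3 wild-type trans-zeatin arrays lie above the 3 wild-type DMSO arrays, while the mutant groups overlap in 18 of 20 panels.

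In wild type, the trans-zeatin arrays lay wholly above the DMSO arrays for 20 of 20 members, which the rule favours; 12.4% of all probe sets showed this. In arr10 arr12 the same held for 2 of 20, GH9C2 and AT2G34060, against 6.27% of all probe sets. The change in wild type ran from 0.70 to 1.57 with a median of 0.80, and the change in the mutant from -0.10 to 0.24 with a median of 0.16. In the mutant, 16 members had a change above 0 and 4 below it. The lowest change, -0.10, is that of 264374_at, whose mutant signals were too close to 0 to measure a response.

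GH9C2 (AT1G64390; chromosome 1, 23911024 to 23915236, build TAIR10.1) and GH9B8 (AT2G32990; chromosome 2, 14003128 to 14006065) encode endoglucanases of glycosyl hydrolase family 9, a family that cleaves beta-1,4-glucans such as cellulose. GH9C2 signal was 385, 470.0 and 575 on the wild-type DMSO arrays and 709, 892 and 945 under trans-zeatin. In arr10 arr12 it was 667, 682 and 605 under DMSO and 781, 780.2 and 716 under trans-zeatin. The mutant DMSO arrays therefore lay between the wild-type groups, and the mutant trans-zeatin arrays lay within the wild-type trans-zeatin range. By the rule's measure the log2 change of GH9C2 was 0.82 in wild type and 0.22 in the mutant, with an SE of 0.13 for either change in the fit.

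GH9B8 lay closer to wild type under DMSO. Its signal was 169, 180.2 and 173 in wild type under DMSO and 297, 337 and 291 under trans-zeatin, against 198, 222 and 182 and then 194, 266 and 226 in the mutant. The mutant trans-zeatin arrays lay below all wild-type trans-zeatin arrays and overlapped the mutant DMSO arrays. Other genes of the family, looked up after these values were seen, included 15 with a named probe set, GH9C2 and GH9B8 among them, and 5 whose highest group mean reached 40. Of the remaining 3 at that level, GH9B7 had a log2 change of 0.28 in wild type and 0.14 in the mutant, GH9B13 of 0.23 and 0.01, and GH9C1 of -0.48 and -0.31.

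AT5G51500 (chromosome 5, 20917795 to 20919964), of the pectin methylesterase family, which removes methyl groups from pectin, was high in all groups but one. Its signal was 31.4, 41.9 and 51.5 in wild-type DMSO roots and 73.4, 70.6 and 71.7 in wild-type trans-zeatin roots. In arr10 arr12 it was 74.0, 76.4 and 70.1 under DMSO and 76.0, 88.9 and 83.5 under trans-zeatin. The mutant under DMSO thus stood at the level that trans-zeatin brought about in wild type. A list meant for xyloglucan and pectin enzymes, which does not hold AT5G51500, matched 16 other genes by symbol or synonym. Some of these, such as PMEAMT and XEG113, may not encode such enzymes. None of the 16 reached a wild-type change of 0.7 at a signal of 40. XTH32, a xyloglucan endotransglucosylase gene, had a log2 change of 0.50 in wild type and 0.41 in the mutant.

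AT3G57010 (chromosome 3, 21095600 to 21097481), a strictosidine synthase-like gene, had the largest wild-type change among the named members. Signal was 479, 332 and 294 under DMSO and 791, 1010.4 and 1051 under trans-zeatin in wild type. In the mutant it was 456, 296 and 329 under DMSO and 505, 512 and 264 under trans-zeatin. The log2 change of AT3G57010 was 1.35 for wild type and 0.24 for the mutant, both with an SE of 0.25 in the fit, so the mutant change was within its error of 0 and also close to the limit of the rule. On 2 of the 3 mutant trans-zeatin arrays the signal stood above all mutant DMSO arrays, and on the remaining one it stood below them.

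AT5G48110 (chromosome 5, 19500988 to 19504534), of the terpene synthase family, had a signal of 46.6, 59.8 and 70.3 under DMSO and 114, 108 and 85.2 under trans-zeatin in wild type. It was 65.2, 74.4 and 65.4 under DMSO and 75.4, 70.9 and 61.9 under trans-zeatin in the mutant, where the groups overlapped and the change was 0.02. AT2G34060 (chromosome 2, 14384797 to 14386725), which encodes a class III peroxidase, an enzyme family that oxidises phenolics in the cell wall, was among the dimmest members. Its signal was 14.8, 14.7 and 22.4 under DMSO and 40.1, 40.4 and 45.1 under trans-zeatin in wild type. In the mutant it was 23.0, 26.0 and 24.4 and then 33.1, 29.3 and 28.4. The mutant groups did not overlap either, with a change of 0.24 against 1.01 in wild type.

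AT2G34060 has another member close by. AT2G34020 (chromosome 2, 14371075 to 14373901), which encodes a calcium-binding EF-hand protein, ends 10895 bases before AT2G34060 begins, with 3 genes between them. Its signal was 50.3, 76.7 and 85.8 under DMSO and 119.7, 131 and 117 under trans-zeatin in wild type, and 77.3, 60.4 and 89.1 against 88.3, 84.4 and 87.5 in the mutant. Of the genes in between, 2 had a named probe set: AT2G34050 had a log2 change of 0.33 in wild type and -0.12 in the mutant, and AT2G34040 of 0.18 and -0.09. TBL37, on the far side of AT2G34060, had -0.02 and 0.03. The remaining named members lay apart from one another, on chromosomes 1 to 5.

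AT5G60760 (chromosome 5, 24438078 to 24442287) and AT3G45090 (chromosome 3, 16490442 to 16495170) both encode proteins of the P-loop nucleoside triphosphate hydrolase superfamily. AT3G45090 signal was 40.4, 40.6 and 46.8 under DMSO and 83.6, 81.0 and 66.5 under trans-zeatin in wild type. It was 74.0, 66.1 and 60.5 and then 57.6, 70.2 and 71.5 in the mutant, all between the wild-type groups or within the trans-zeatin range. AT5G60760 signal was 33.9, 53.5 and 48.0 and then 76.8, 98.9 and 95.5 in wild type, and 74.4, 70.6 and 53.3 and then 65.3, 70.1 and 71.0 in the mutant. The log2 change in the mutant was -0.01 for AT3G45090 and 0.05 for AT5G60760, against 0.76 and 0.90 in wild type. Under DMSO the mutant arrays lay wholly above the wild-type arrays for AT3G45090 and not for AT5G60760. Under trans-zeatin they lay wholly below for AT5G60760 and not for AT3G45090.

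AT5G41190 (chromosome 5, 16487466 to 16490101) carries the synonym NOB1; its counterpart in yeast is an endonuclease that matures the RNA of the small ribosomal subunit. Signal was 120.1, 139.8 and 195 under DMSO and 283, 297 and 209.7 under trans-zeatin in wild type. In the mutant it spread from 156 to 272 under DMSO and from 172 to 264 under trans-zeatin, which covers much of the distance between the wild-type groups. AT4G02480 (chromosome 4, 1081671 to 1088846), of the AAA-type ATPase family, was 31.9, 45.3 and 37.5 under DMSO and 55.0, 61.2 and 84.5 under trans-zeatin in wild type. The mutant values were 67.8, 58.9 and 71.7 under DMSO and 101, 87.1 and 41.0 under trans-zeatin. Without the last of these arrays AT4G02480 does not meet the rule. The reference table gives AT4G02470 as a synonym of this gene.

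Among the 9 members without a gene name, 252858_at had the largest wild-type change of all 20 members. Signal was 76.8, 72.0 and 66.0 under DMSO and 212, 223 and 245 under trans-zeatin in wild type, and 62.6, 88.5 and 67.1 and then 70.4, 86.9 and 91.7 in arr10 arr12. The wild-type trans-zeatin group stood apart from the other 3 groups, which overlapped. The log2 change of 252858_at was 1.57 for wild type and 0.18 for the mutant, with an SE of 0.13 for either. A like shape at lower amplitude was seen for 256650_at, with wild-type means of 55.4 ± 0.908 and 102 ± 11.1 and mutant means of 60.8 ± 5.98 and 59.8 ± 8.20 (SD, n = 3 arrays each), and for 260053_at and 246103_at.

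The signal of 257353_at was 44.7, 37.8 and 48.2 under DMSO and 149, 95.2 and 77.9 under trans-zeatin in wild type, and 60.5 to 93.7 and 77.9 to 101 in the mutant. The mutant thus overlapped the wild-type trans-zeatin arrays under both treatments, as it did for 247741_at, with mutant means of 74.5 ± 8.50 and 78.6 ± 16.4 against 47.8 ± 3.08 and 89.7 ± 7.08 in wild type. For 253255_at the mutant DMSO arrays, at 113, 118 and 115, fell between the wild-type groups. The dimmest member by its highest group mean was 263211_at, with 40.6.

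The signal of 264374_at was close to 0 in the mutant under both treatments. It was 145, 149 and 149 under DMSO and 235, 248 and 289 under trans-zeatin in wild type, and 1.79, 4.12 and 3.09 and then 1.46, 4.61 and 0.828 in arr10 arr12. Its mutant signals lie below the offset of 7, so its mutant change of -0.10 is set by the offset and says nothing of a response. No gene name is given to it in the annotation used here. Whether it reports ARR10 or ARR12, the genes mutated in arr10 arr12, was not tested. It was kept in the counts and medians over all members, although no mutant response could be measured for it.

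**Figure D2:**
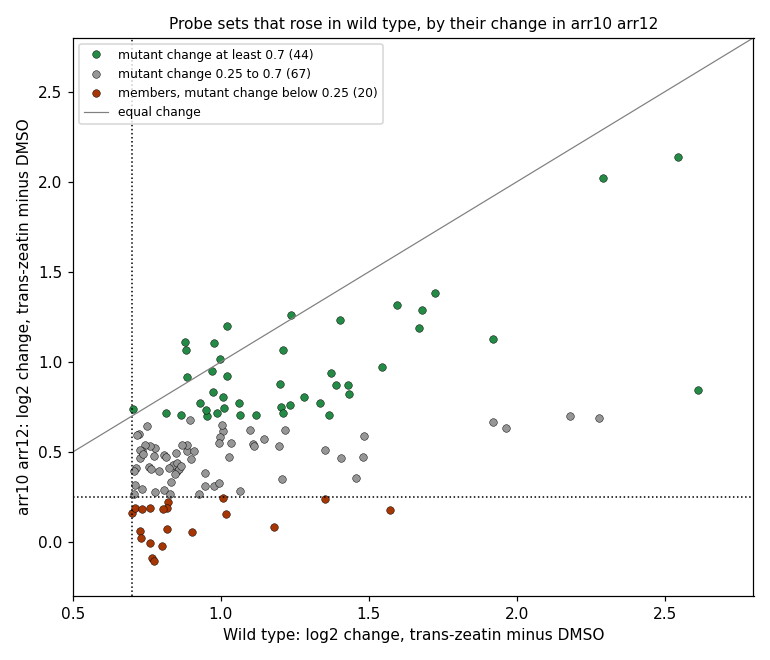
Log2 change from DMSO to trans-zeatin in wild type (horizontal axis) and in arr10 arr12 (vertical axis) for the 131 probe sets that met the level and the wild-type change of the rule, with the families named in the annotation left out. Dotted lines mark the limits of 0.7 and 0.25; the 20 members are the lower edge of a cloud that reaches up to the line of equal change.

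The members form the lower end of a continuous range of mutant responses. Of 131 probe sets with a wild-type change of at least 0.7 at this level, 44 had a mutant change of at least 0.7, 67 lay between 0.25 and 0.7, and 20 lay below 0.25. The median wild-type change was 1.20, 0.87 and 0.80 in these sets. Just inside the limit on the mutant change were AT2G34060 (0.24), AT3G57010 (0.24) and GH9C2 (0.22), and just outside were AT3G59480 (0.27) and AT1G54120 (0.27). Just inside the limit on the wild-type change were AT5G51500 (0.70) and AT4G02480 (0.71), and just outside were AT1G27210 (0.69) and AT5G54130 (0.69). The steps across these 2 limits are smaller than the SE of a change, which was 0.11 to 0.25 for the members. Just inside the limit on level were 263211_at and AT2G34060 (highest group means of 40.6 and 41.9), and just outside was AT5G22390 (34.8). EXPA15, an expansin that the rule leaves out by family, met its limits too, with changes of 1.33 and 0.24.

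The few listed cytokinin genes that had a named probe set were not among the 11 named members; 9 members have no gene name here. ARR15 and ARR16 (RR16 in the reference table) encode type-A response regulators, which are rapid targets and negative feedback regulators of the pathway. Their log2 changes were 1.92 and 2.28 in wild type and 1.12 and 0.69 in the mutant, above the limit of 0.25; mutant DMSO means of 6.56 and 2.13 lay below the offset, which sets the size of these values. UGT76C2, a cytokinin glucosyltransferase gene, had changes of 0.53 and 0.45. Of 22 gene lists, which were also meant to cover transport, cell wall, secondary metabolism, hormone, cell cycle and regulatory genes, 14 had a named probe set and 8 had none. Genes were matched by symbol or synonym, so some may not belong, such as the run from AT5G17930 to AT5G17980 on the cell cycle list. The lists hold neither AT5G51500 nor AT2G34060, so they do not measure how many members belong to such families.

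The members differed in their mutant level under DMSO. The share of the wild-type rise, on the log2 scale, that was already present in mutant DMSO roots was 50% or more for 8 members: AT5G51500, AT4G02480, AT3G45090, AT5G41190, AT5G60760, GH9C2, 247741_at and 257353_at. It ran from 54.0% for GH9C2 to 104% for AT5G51500. It lay between 25% and 50% for 4 members and below 25% for 7, among them AT3G57010 (-2.24%), 252858_at (1.35%) and GH9B8 (24.9%). No gap marks the 25% line, since 263211_at (25.3%) and AT5G48110 (26.4%) lay just above it. The remaining member is 264374_at. These lines were drawn after the values were seen, and the same arrays chose the members.

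**Figure D3:**
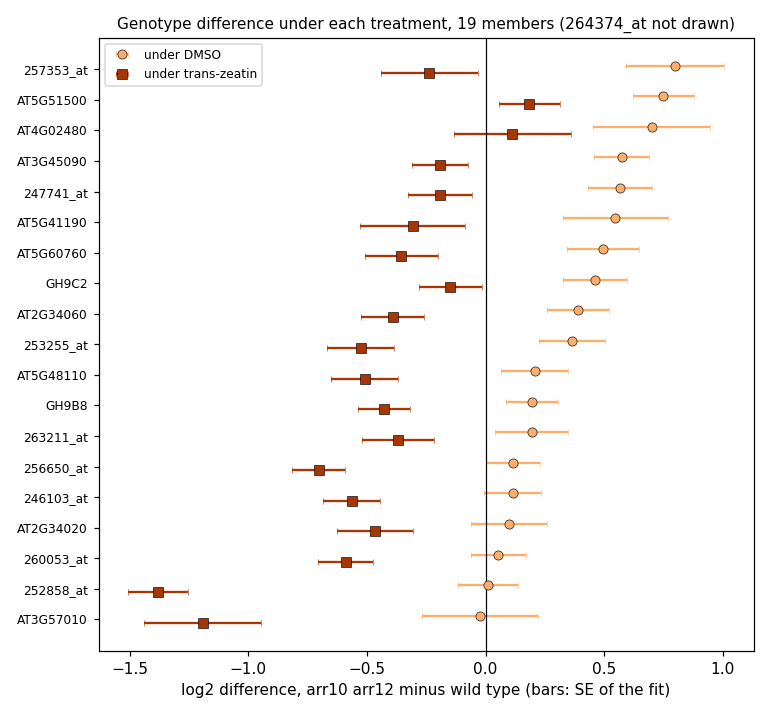
Log2 difference between arr10 arr12 and wild type (horizontal axis) under DMSO (circles) and under trans-zeatin (squares) for 19 members, ordered by the DMSO difference, with the SE of the fit as bars. The members at the top were higher in the mutant under DMSO and near wild type under trans-zeatin; those at the bottom were near wild type under DMSO and lower in the mutant under trans-zeatin.

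Under DMSO the group mean was higher in the mutant for 18 of 20 members and for 12055 of all 22746 probe sets. The median difference was 0.28 for the members against 0.01 over all probe sets. The mutant arrays lay wholly above the wild-type arrays for 9 members (12.0% of all probe sets) and wholly below for 264374_at (9.86%). Under trans-zeatin the group mean was lower in the mutant for 18 of 20 members, with a median difference of -0.41, and for 11020 of all 22746 probe sets. The mutant arrays lay wholly below the wild-type arrays for 12 members (8.02% of all probe sets). The same arrays chose the members: low wild-type DMSO arrays and high mutant DMSO arrays both help a probe set to meet the rule. The size of the DMSO difference in these arrays is therefore given without a test. The set with a middle mutant response had a median DMSO difference of 0.01, and the set that also rose in the mutant -0.17. Under trans-zeatin these 2 sets were also lower in the mutant, for 63 of 67 and 39 of 44 probe sets, with medians of -0.45 and -0.35. A lower mutant level under trans-zeatin is thus not particular to the members.

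The genotype difference averaged over both treatments is orthogonal to both responses in this balanced design. Its errors are independent of those in the responses only where the spread is equal in all groups, as the fit assumes. A lost induction by itself moves the averaged difference below 0, while a raised DMSO level moves it up. In limma's test with Benjamini-Hochberg adjustment, 3 of 20 members passed an adjusted p of 0.05, against 3.79% of all probe sets. That share is over all 22746, of which only 12011 reached the signal of 40 required of members, so it is not a matched background. AT5G51500 was higher in arr10 arr12, by 0.47 ± 0.09 (SE; limma adjusted p = 0.011), where 1.39% of all probe sets were called higher. For AT5G51500 the wild-type signals had an SD of 10.0 under DMSO and 1.46 under trans-zeatin. An error in its wild-type DMSO mean could thus have helped both its choice and this call. Without wild-type DMSO replicate 1 it did not meet the rule, and its averaged difference was 0.39. 252858_at was lower, by -0.68 ± 0.09 (limma adjusted p = 9.0e-04), and so was 264374_at (limma adjusted p = 1.9e-11), where 2.40% of all were called lower. For 252858_at the fitted difference was 0.0097 under DMSO and -1.38 under trans-zeatin, so its call restates the lost induction that chose it. The call of 264374_at is likewise a description, as it met the limit on level in wild type only. The mutant signals of 264374_at lie below the offset, which sets the size of its difference: it was -4.40 with the offset of 7 and -3.51 with an offset of 16, and both understate it. Each of the 3 passed in all 19 other settings of the fit, where the limma adjusted p of AT5G51500 ran from 0.0025 to 0.036 and that of 252858_at from 2.0e-04 to 0.0040. The next members were 256650_at (-0.29, limma adjusted p = 0.062) and AT3G57010 (-0.61, limma adjusted p = 0.077), which did not pass here and did so in 4 and 1 of 19 other settings, with ranges of 0.026 to 0.16 and 0.032 to 0.19. Over the 20 members the averaged difference had a median of -0.08, with 8 above and 12 below 0, against a median of 0.01 over all probe sets. The median was lower still in the set with a middle mutant response, at -0.23 with 56 of 67 below 0. In the set that also rose in the mutant it was -0.26, with 35 of 44 below 0.

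Of the listed genes in the same test, both type-A regulators were lower in the mutant (limma adjusted p = 0.0034 for ARR15 and 1.1e-04 for ARR16). The offset sets the size of these differences too, since mutant means lie near or below it: with offsets of 7 and 16 they were -0.76 and -0.59 for ARR15, and -1.51 and -1.09 for ARR16. Among the 16 genes matched to the cell wall list 1 was higher (XTH21) and 3 were lower (XTH18, XTH26 and XTH32). Of 51 UGT family glycosyltransferase genes, 3 were higher and 3 lower. Over all probe sets, 1.39% were called higher and 2.40% lower.

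**Figure D4:**
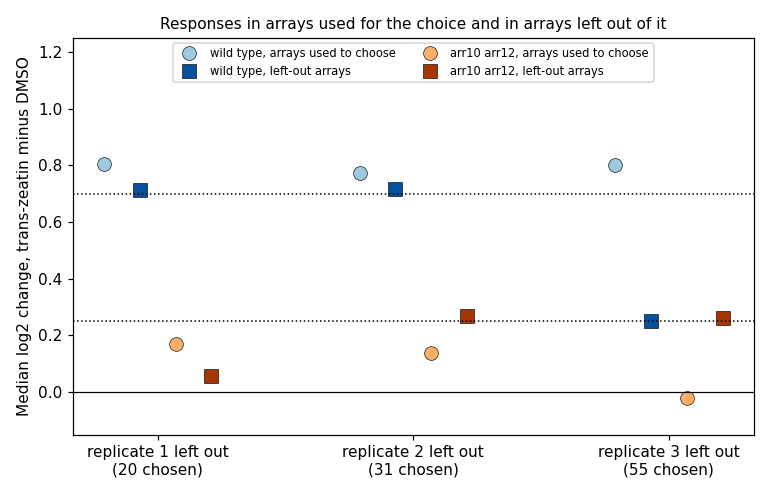
Median log2 change from DMSO to trans-zeatin (vertical axis) of the probe sets chosen by the rule without the 4 arrays of 1 replicate number, in the arrays used to choose them (circles) and in the arrays left out (squares), by genotype. Dotted lines mark the limits of 0.7 and 0.25. With the offset of 7 used here, the left-out medians of wild type and mutant were 0.71 and 0.06 for replicate 1, 0.72 and 0.27 for replicate 2, and 0.25 and 0.26 for replicate 3.

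The rule was also applied to 8 arrays, leaving out 1 replicate number in all 4 groups, and the responses were read from the 4 arrays left out. Without replicate 1, 20 probe sets were chosen, 11 of them members. In the replicate 1 arrays their median change was 0.71 for wild type and 0.06 for the mutant, and the wild-type change was the larger in 19 of 20. Without replicate 2, 31 were chosen, 14 of them members. The left-out medians of the 31 were 0.72 and 0.27, with the wild-type change larger in 25 of 31. Without replicate 3, 55 were chosen, only 15 of them members. The left-out medians of the 55 were 0.25 in wild type and 0.26 in the mutant, with the wild-type change larger in 29 of 55. These medians thus describe mostly probe sets that are not members. With an offset of 16 in place of 7, 38 probe sets were chosen without replicate 3, 15 of them members. The left-out medians of the 38 were 0.38 in wild type and 0.29 in the mutant. With the offset of 7, only 7 of 20, 8 of 31 and 2 of 55 met both limits in the arrays left out. Over all probe sets the corresponding medians were within 0.02 of 0. The labels do not say what same-numbered arrays share, so the 4 arrays left out may not be independent of one another. Each left-out change rests on 1 array per group.

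In the same left-out arrays the median DMSO difference between mutant and wild type was 0.15, 0.05 and 0.09, and the median trans-zeatin difference was -0.40, -0.33 and 0.14. In the arrays that chose the same probe sets, the median DMSO difference was 0.14, 0.27 and 0.59, and the median trans-zeatin difference was -0.55, -0.40 and -0.33. The DMSO difference was thus smaller in the left-out arrays of replicates 2 and 3 and about the same in those of replicate 1, and the median trans-zeatin difference was above 0 in the replicate 3 arrays. With an offset of 16 the left-out medians were -0.01, -0.0043 and 0.08 for DMSO and -0.45, -0.34 and 0.08 for trans-zeatin. Within the wild-type DMSO group, replicate 1 was the lowest array for 13 of 20 members and replicate 3 the highest for 12. The median deviation of the members from their group mean was -0.12 and 0.13 log2 on these arrays, against -0.01 and 0.01 over all probe sets.

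Leaving out any 1 of the 12 arrays, the rule chose between 20 and 32 probe sets, which held 14 to 19 of the 20 members. AT5G60760, AT3G45090, 247741_at, 256650_at and 257353_at met it in all 12 of these choices. AT4G02480 met it in the fewest, 8. Wild-type DMSO replicate 1 mattered most for the members: without it GH9C2, AT5G41190, AT2G34020, AT5G48110, AT4G02480 and AT5G51500 did not meet the rule.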

How the data were processed

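The deposited values are MAS5 signals, a linear intensity per probe set, from ATH1 arrays; the tools named per the submitters' processing notes are MAS5 and GCOS, with versions not given in the sources used here. All arrays have a 2%-trimmed mean of 100.01, so the authors' scaling was kept and nothing further was normalized. Control probe sets (64 of 22810) were left out. Gene names come from the platform annotation and RefSeq's gene table (assembly TAIR10.1): 13513 have 1 gene, 503 several and 8730 no entry. Families left out were recognised by symbol or synonym (29 probe sets). The log2 was taken after adding 7. All 20 members also pass a filter at the 40th percentile of mean signal (23.5).

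The averaged genotype difference was fitted in R 4.3.3 with limma 3.58.1: 4 group means over 12 arrays, intensity trend, 2-sided, Benjamini-Hochberg adjustment over 22746 probe sets, no filter on low signal. The fit was tested on simulated data drawn with equal spread in all groups, which cannot show how it does where spreads differ. Replicate numbers come from the titles. Alternatives were other offsets, quantile normalization, a filter, array weights, no trend, a replicate block and leaving out arrays. Named genes were the 30 members with a gene that changed most in wild type (all 11), members of the lists, probe sets next to a limit and called members; GH9 genes and chromosome 2 neighbours were added after values were seen. Members and lists were chosen with earlier results of these data known. No sequences are shown, as the tables used here hold none.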

Additional observations from a re-analysis of the deposited data

How the results depend on the processing

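The rule chose 16 to 21 probe sets under the other offsets, the mean of log2 values, quantile normalization and a minimum of 80, against 20, and 20 to 32 leaving out 1 array (32 without wild-type DMSO replicate 3). An offset of 16 kept 13 of the 20 members. The averaged genotype difference was called for 862 probe sets, 317 higher and 545 lower, and for 520 to 904 leaving out 1 array (176 to 354 higher, 343 to 575 lower); it fell by over 1.5 times without wild-type trans-zeatin replicate 3 (543), wild-type DMSO replicate 2 (563) or mutant DMSO replicate 1 or 2 (525 and 520). Of the members 3 were called, 5 with the filter at the 40th percentile, 5 with array quality weights, and 3 to 6 leaving out 1 array (6 without mutant trans-zeatin replicate 3). With the titles' replicate number as a block 982 were called, with 4 members. The numbers were not taken as pairs, since the labels do not say what they share. The correlation of deviations between same-numbered arrays of different groups ran from -0.07 to 0.34, with a mean of 0.11. Between differently numbered arrays it ran from -0.35 to 0.18, with a mean of -0.05, and 9 of 12 arrays correlated best with their own number. The averaged difference of AT2G34060, at -0.0017, was 0.0074 with quantile normalization, 0.0098 with array weights and -0.039 to 0.071 leaving out 1 array. That of 253255_at ran from -0.14 to 0.0063 and that of AT5G60760 from -0.013 to 0.14 leaving out 1 array. In the arrays left out of the choice, an offset of 16 moved the mutant median for replicate 1 from 0.06 to 0.16, and for replicate 3 the wild-type median from 0.25 to 0.38 and the mutant median from 0.26 to 0.29, which turns their order. Array number limits precision, and signals below 7 carry no order.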
